A study of Homo sapiens with 2 samples.

Results

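Cholesterol and fatty acid synthesis genes were examined in erlotinib-resistant HCC4006ER cells and in the HCC4006 cells from which they were derived. The members were 47 genes listed by name for their place in these pathways, and 43 of them were measured, among 19775 genes on the arrays. HCC4006ER carries the label erlotinib resistant with the phenotype EMT (epithelial-mesenchymal transition), and was made by growing HCC4006 in rising concentrations of erlotinib, an inhibitor of the EGFR tyrosine kinase. HCC4006 is a human NSCLC (non-small cell lung cancer) line labelled erlotinib sensitive and wildtype in phenotype, and both lines carry an EGFR exon 19 deletion. Neither line received an additional treatment before RNA was taken after 48 hours in RPMI with serum, so no erlotinib is named for the HCC4006ER culture that was hybridized. Equal parts of 3 RNA preparations per line were mixed and run on 1 Affymetrix HG-U133 array per line. The comparison is therefore between 2 arrays, without replicates and without a test, and each line is 1 derivation.

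Of the 4 listed genes that were not measured, FADS1 and ELOVL1 have only probe sets that carry a second gene symbol, and FDFT1 and ACSL3 were not analysed here. For a gene with several probe sets, the one brightest on average (log2 scale, both arrays) was used. Background was taken from 127 probe sets of olfactory and bitter taste receptors (their expression is mostly limited to sensory tissue): the 95th percentile was 91.6 in HCC4006ER and 96.2 in HCC4006. All 43 members lay above it on both arrays. The log2 fold is that of HCC4006ER over HCC4006, and 1.5-fold is the threshold named in the study's methods. Probe sets of the same gene differed in log2 fold with a pooled SD of 0.27 over 5264 genes. That SD measures disagreement between probes on the same 2 arrays and not variation between cultures.

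The labelled phenotype was only partly borne out by its markers. N-cadherin (CDH2), fibronectin (FN1) and vimentin (VIM) were 2.05-fold, 1.66-fold and 1.53-fold higher on the HCC4006ER array, while ZEB1 did not exceed background, at 53.1 in HCC4006ER and 42.5 in HCC4006. The epithelial E-cadherin (CDH1) read 11041 in HCC4006ER and 10469 in HCC4006, and all 6 epithelial markers were above background on both. The arrays are called after their labels throughout, and every direction rests on those labels. Of 6 fibroblast markers, 0 were above background on the HCC4006ER array and 1 was on the HCC4006 array. Their summed signal was 235 in HCC4006ER and 402 in HCC4006. Of the hepatocyte markers, from a cell type that makes much cholesterol, 1 of 5 was above background on each array (TTR, at 126 in HCC4006ER and 112 in HCC4006), and albumin (ALB) was not. Of 4 adipocyte markers, 1 was above background on each array (CIDEC, at 96.9 in HCC4006ER and 110.0 in HCC4006).

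Cells make cholesterol from acetyl-CoA, first building mevalonate and isoprenoid units, then squalene, and then closing and trimming the sterol rings. Fatty acids start from the same acetyl-CoA and are built by a separate set of enzymes, then lengthened, desaturated and joined to glycerol. The SREBP transcription factors, encoded by SREBF1 and SREBF2, switch on both sets of genes. SCAP carries them out of the endoplasmic reticulum when sterols are scarce, and the INSIG proteins hold SCAP back when sterols are plentiful. In the lung, alveolar type II cells are known for using fatty acids for the phospholipids of surfactant.

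Genes of cholesterol synthesis were higher on the HCC4006ER array along most of the pathway, and among fatty acid genes SCD5, SCD and ACSL4 were higher past 1.5-fold. Of the 43 members, 15 were higher past 1.5-fold, 3 were lower and 25 lay within it. Among all 11896 genes above background, the shares past that size were 7.99% higher and 11.2% lower. The median log2 fold of the members was 0.38, beside -0.04 over all those genes, and 32 of the 43 were higher at any size, beside 46.0% of all genes. Past 2-fold, 6 members were higher (HMGCS1, MVD, IDI1, INSIG1, SCD and SCD5) and 0 were lower, where 2.38% of all genes were higher and 3.56% lower. Scaling the arrays to equal medians moved the log2 folds up, by 0.13 for the median of all genes. Then 17 members were higher and 1 was lower, where 12.399% of all genes above background were higher and 7.397% lower. Of all genes past 1.5-fold, 58.3% were lower as deposited and 37.4% at that scaling.

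**Figure D1:**
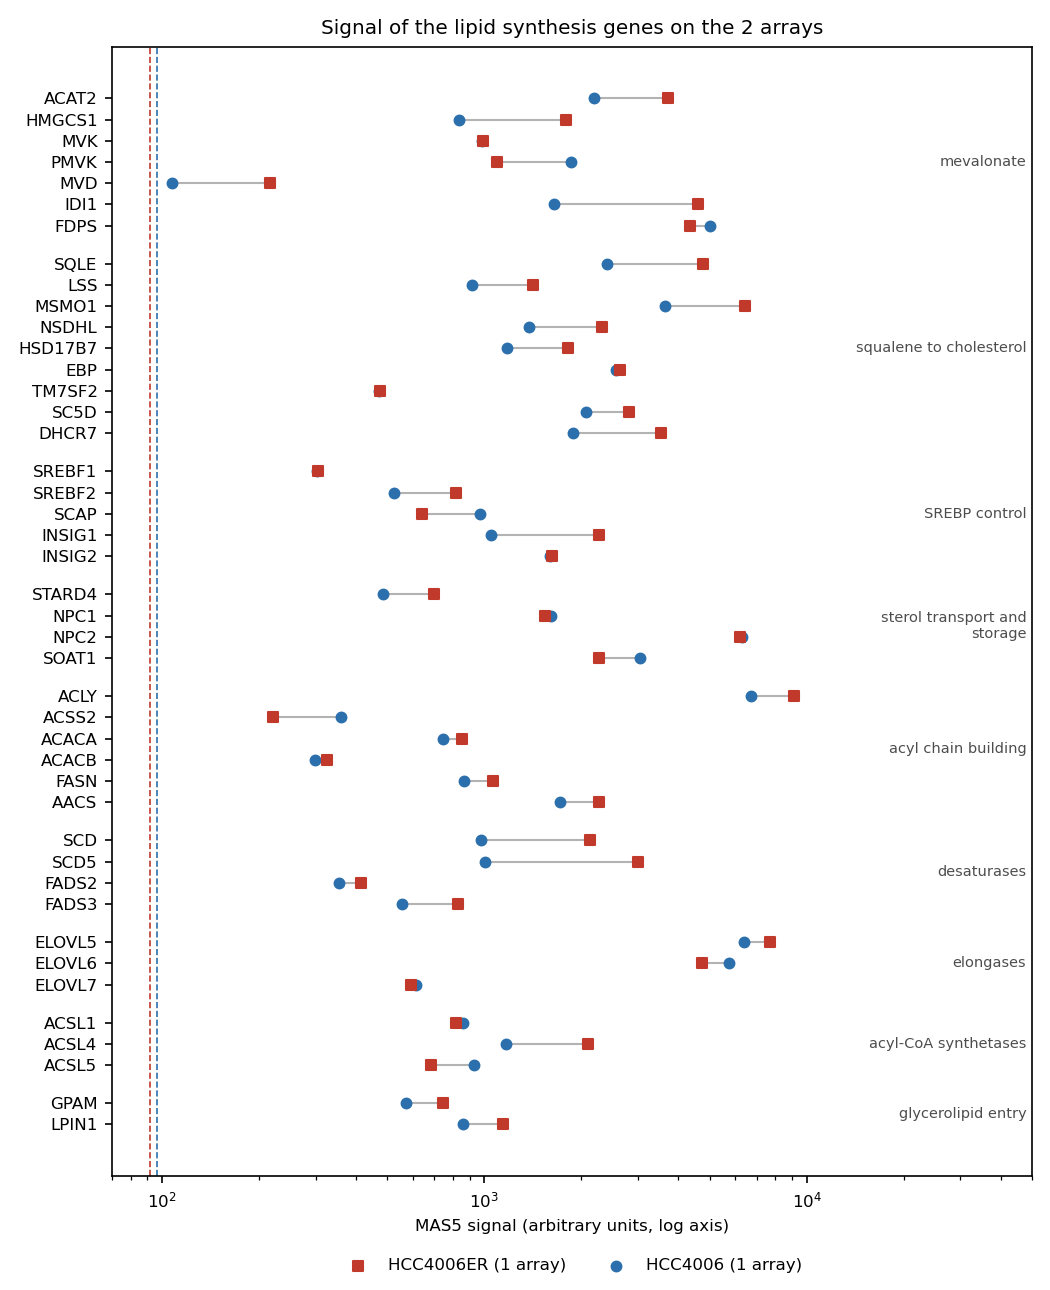
MAS5 signal (log axis) of the 43 members, with red squares for HCC4006ER and blue circles for HCC4006, 1 array each, and dashed lines at the background levels of 91.6 and 96.2. The squares lie to the right for most cholesterol synthesis genes, with IDI1 at 4607 in HCC4006ER and 1649 in HCC4006, and MVD on the HCC4006 array is the point nearest to background.

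Promoter stretches of 6 members are shown first, since many cholesterol synthesis genes, higher or not, hold a short box in front of their start. SREBF2 is among them since it carries the element that its own protein binds. RefSeq promoter windows (GRCh38.p14), of 250 bases before and 50 after an annotated start, were given for 43 of the 47 listed genes, in 63 windows; ACAT2, FDFT1, SQLE and FASN have none. The 200 bases before the start are printed 5' to 3' on the gene's strand, in lower case. Capitals mark the NF-Y box CCAAT on either strand (ATTGG when it lies on the other strand) and, in SREBF2, the sterol regulatory element core TCACNCCAC. NF-Y is a factor known to bind beside SREBP at sterol-regulated promoters. INSIG1, HMGCS1, MSMO1 and NSDHL stand for genes that were higher, and MVK is shown as a mevalonate gene that differed little. HMGCS1 has 2 windows, and the one used here holds 2 boxes while the other holds 0.
SREBF2, chr22:41832905-41833104, plus strand: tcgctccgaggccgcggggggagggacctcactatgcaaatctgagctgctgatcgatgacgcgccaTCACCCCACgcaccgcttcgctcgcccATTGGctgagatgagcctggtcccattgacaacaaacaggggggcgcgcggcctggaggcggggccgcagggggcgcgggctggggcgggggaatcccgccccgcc
INSIG1, chr7:155297678-155297877, plus strand: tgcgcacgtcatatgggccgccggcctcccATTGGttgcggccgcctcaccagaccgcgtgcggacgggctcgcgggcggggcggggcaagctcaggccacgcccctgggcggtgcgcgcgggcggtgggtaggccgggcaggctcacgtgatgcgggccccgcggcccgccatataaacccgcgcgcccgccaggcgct
HMGCS1, chr5:43313413-43313612, minus strand: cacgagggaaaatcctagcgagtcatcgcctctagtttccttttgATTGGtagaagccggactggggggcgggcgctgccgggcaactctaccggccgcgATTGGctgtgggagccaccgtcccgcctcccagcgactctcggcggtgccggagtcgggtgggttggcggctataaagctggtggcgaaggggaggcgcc
MSMO1, chr4:165327469-165327668, plus strand: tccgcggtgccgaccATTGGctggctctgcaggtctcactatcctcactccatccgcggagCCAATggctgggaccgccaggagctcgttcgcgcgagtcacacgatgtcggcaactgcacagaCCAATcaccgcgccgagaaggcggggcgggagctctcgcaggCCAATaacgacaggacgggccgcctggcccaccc
NSDHL, chrX:152830863-152831062, plus strand: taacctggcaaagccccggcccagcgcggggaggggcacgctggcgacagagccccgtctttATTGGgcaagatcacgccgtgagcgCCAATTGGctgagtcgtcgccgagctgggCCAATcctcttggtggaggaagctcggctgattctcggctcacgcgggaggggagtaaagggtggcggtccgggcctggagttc
MVK, chr12:109573594-109573793, plus strand: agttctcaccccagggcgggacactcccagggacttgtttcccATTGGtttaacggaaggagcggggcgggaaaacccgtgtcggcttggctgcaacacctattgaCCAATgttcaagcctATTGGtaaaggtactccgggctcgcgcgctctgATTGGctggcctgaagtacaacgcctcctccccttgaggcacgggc

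SREBF2 was the only gene among the cholesterol synthesis and SREBP control genes with the element core in its window, 133 bases before the start and 18 bases ahead of its NF-Y box. Only exact matches to TCACNCCAC within the 300-base windows were counted. Sites that differ from this string or lie outside the windows were not searched, so a gene without a match is not shown to lack an element. Of all 35116 windows in the table, 1.13% hold the core on either strand. Among the members it was found in 2 of 63 windows, the other being 1 of 5 windows of ACSL1. The NF-Y box was in 35 of the 63 member windows (55.6%), beside 34.6% of all windows. Counted by gene, 39.7% of all genes with a window held the box in at least 1 of their windows. Of 14 cholesterol synthesis genes with a window, 13 did, the exception being PMVK. MSMO1 holds 4 boxes and NSDHL 4 in the stretches shown, of which 2 in NSDHL overlap each other. MVK also holds 4 boxes there, at a log2 fold of 0.02. FDPS, SC5D, EBP and TM7SF2 hold boxes and lay within 1.5-fold too. Of 13 higher members with a window, 12 held a box, and 16 of 24 members within 1.5-fold did. Those shares mix pathways. Among cholesterol synthesis genes with a window, every higher gene and every gene within 1.5-fold held a box, so the box did not separate them. A GC box (GGGCGG, either strand) was in 51 of the member windows (81.0%), beside 45.0% of all windows. In 1 place a match overlapped that of another motif. The shares of all windows were taken whether or not a gene was above background here, so they are not matched to the members for expression. A match describes letters in a window and is not a measured binding site.

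**Figure D2:**
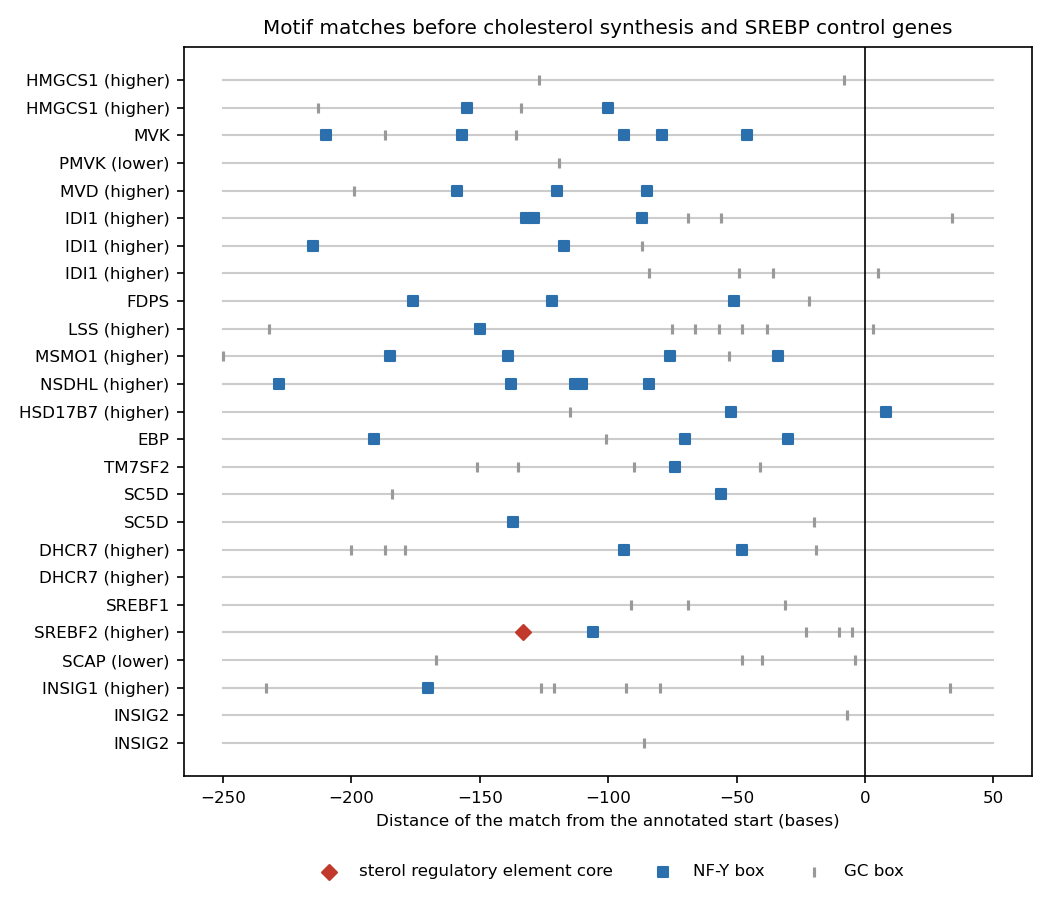
Matches of 3 motifs on either strand in the promoter windows of cholesterol synthesis and SREBP control genes, by distance in bases from the annotated start (the line at 0), with 1 row per window. NF-Y boxes (blue) lie in front of most of these genes, whether or not the gene was higher. An exact match to the sterol regulatory element core TCACNCCAC (red) appears in SREBF2 alone, and other forms were not searched.

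In the mevalonate part of the pathway, 4 of 7 genes were higher past 1.5-fold, 1 was lower and 2 lay within it, with a median log2 fold of 0.76. Among all genes above background, 7.99% were higher and 11.2% lower past that size. IDI1, the isomerase that makes the second isoprenoid building unit, read 4607 in HCC4006ER and 1649 in HCC4006, 2.79-fold higher. Its other 2 probe sets above background had log2 folds of 1.36 and 1.18. These 3 probe sets carry the suffix that marks probes able to match further transcripts, and the 1 probe set without it was not above background, at 65.9 in HCC4006ER and 26.4 in HCC4006. HMGCS1, the synthase that makes HMG-CoA, read 1791 in HCC4006ER and 833 in HCC4006 and was 2.15-fold higher, and its further probe set, at 1625 in HCC4006ER and 751 in HCC4006, gave nearly the same log2 fold (1.11 beside 1.10).

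ACAT2, the thiolase at the entry of the pathway, read 3717 in HCC4006ER and 2193 in HCC4006, 1.69-fold higher. MVD, the decarboxylase that makes isopentenyl pyrophosphate, read 217 in HCC4006ER and 107 in HCC4006, 2.03-fold higher, with the HCC4006 value close to background. With the background set at the 99th percentile that value fell below it, and the log2 fold became at least 0.61. PMVK, the phosphomevalonate kinase, went the other way in its 1 probe set, at 1094 in HCC4006ER and 1852 in HCC4006, 1.69-fold lower. MVK, the kinase before it, was nearly equal at 993 in HCC4006ER and 982 in HCC4006, although 1 of its 2 further probe sets above background was higher (log2 fold 0.32) and the other lower (-0.32). FDPS, which joins isoprenoid units into farnesyl pyrophosphate, read 4350 in HCC4006ER and 5003 in HCC4006. Its log2 fold of -0.20, from 1 probe set, lay within 1.5-fold.

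From squalene to cholesterol, 6 of 9 genes were higher past 1.5-fold, 0 were lower, and all 9 had a log2 fold above 0 (0.01 to 0.98, median 0.63). Among all genes above background, 7.99% were higher and 11.2% lower past that size, and 46.0% had a log2 fold above 0. SQLE, the monooxygenase that opens this branch and a rate-limiting step, read 4754 in HCC4006ER and 2409 in HCC4006, 1.97-fold higher. Its 3 probe sets above background agreed, with log2 folds of 0.96 to 1.12. DHCR7, the reductase of the last step, was 1.87-fold higher at 3520 in HCC4006ER and 1881 in HCC4006, with 0.64 in its further probe set. MSMO1, which removes methyl groups from the sterol ring together with NSDHL, was 1.76-fold higher at 6418 in HCC4006ER and 3645 in HCC4006. NSDHL itself was 1.68-fold higher at 2312 in HCC4006ER and 1375 in HCC4006, and its further probe set gave a larger log2 fold, 1.04.

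LSS, the cyclase that makes lanosterol, read 1411 in HCC4006ER and 916 in HCC4006, 1.54-fold higher, and its dimmer probe set had a log2 fold of 0.52, so that the mean over probe sets above background did not pass 1.5-fold. HSD17B7, the keto-reductase of the demethylation steps, read 1818 in HCC4006ER and 1176 in HCC4006, 1.55-fold higher, in 1 probe set whose probes may also match other transcripts. The remaining genes of this stretch lay within 1.5-fold. SC5D, the sterol desaturase near the end of the pathway, had a log2 fold of 0.44 at 2810 in HCC4006ER and 2070 in HCC4006. Its dimmer probe set, at 120 in HCC4006ER and 76.2 in HCC4006, had a measured log2 fold of 0.66. That HCC4006 value is below background, and raising it to background gave 0.32. EBP, the sterol isomerase, was nearly equal at 2634 in HCC4006ER and 2564 in HCC4006, with a dimmer probe set at -0.25. TM7SF2, a sterol reductase, was equal as well, at 475 in HCC4006ER and 471 in HCC4006.

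Over both stretches, 10 of 16 enzymes of cholesterol synthesis were higher and PMVK alone was lower, beside 7.99% and 11.2% of all genes. Their median log2 fold was 0.69. All 15 members higher past 1.5-fold had each of their probe sets above background on the higher side, and 10 of the 15 had more than 1 such probe set.

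**Figure D3:**
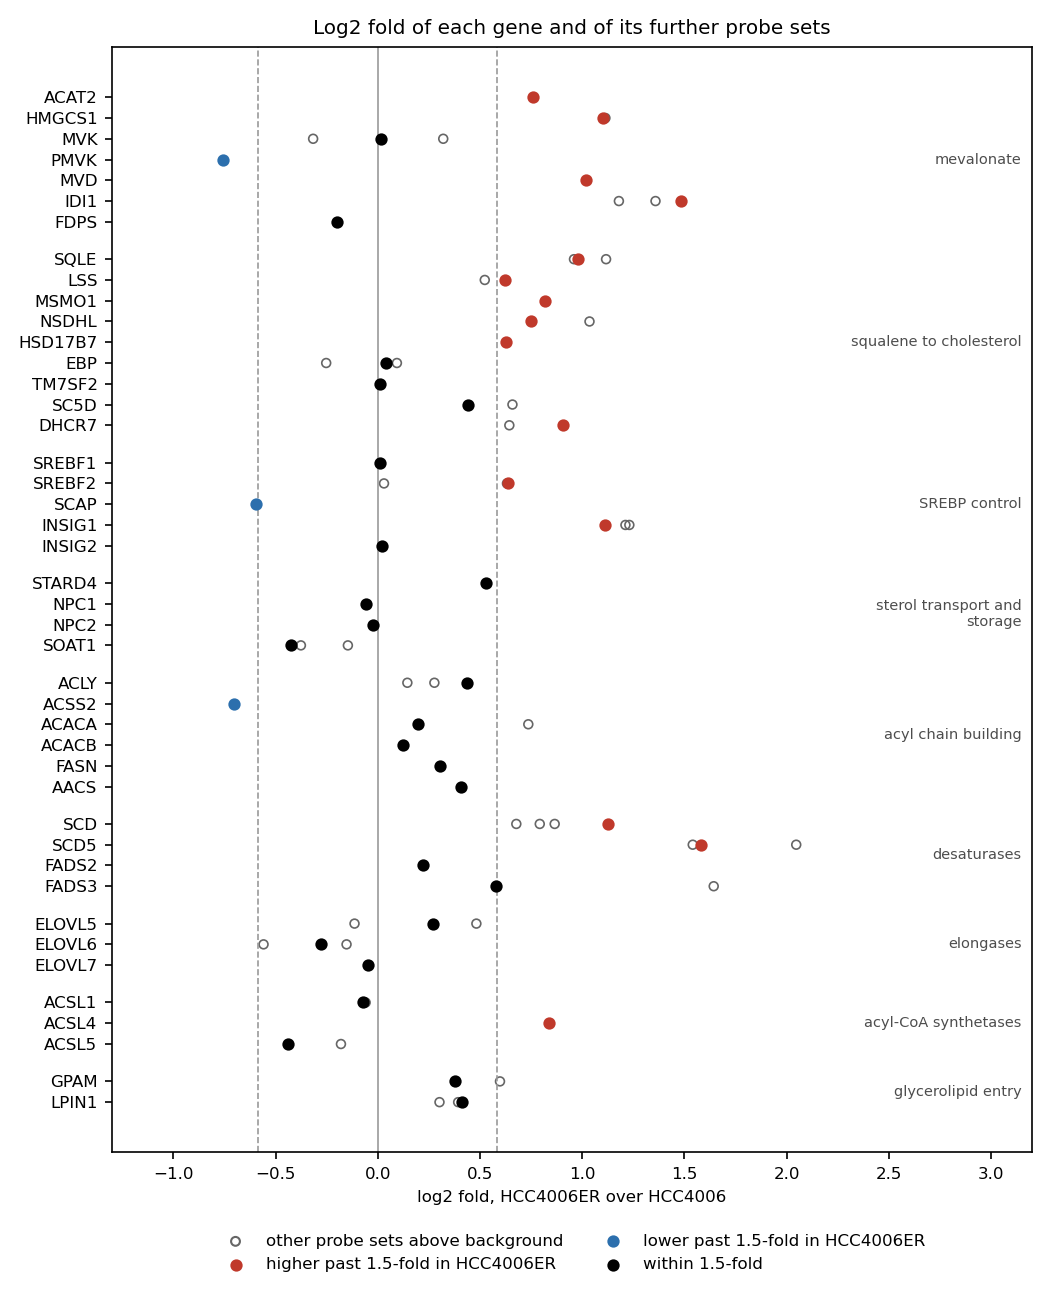
Log2 fold of HCC4006ER over HCC4006 for each member (filled points, coloured by whether they passed 1.5-fold, marked by dashed lines) and for its other probe sets above background (open circles). The 15 red points lie between LSS at 0.62 and SCD5 at 1.58, and the 3 blue points are PMVK, SCAP and ACSS2.

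The genes that control the SREBPs went in different directions. INSIG1, the retention protein that is itself a known SREBP target, read 2263 in HCC4006ER and 1049 in HCC4006, 2.16-fold higher. All 3 of its probe sets agreed, with log2 folds of 1.11 to 1.23. INSIG2, its relative, was equal at 1622 in HCC4006ER and 1601 in HCC4006. SREBF2, which encodes the SREBP known for sterol genes, read 814 in HCC4006ER and 524 in HCC4006, 1.55-fold higher. A further SREBF2 probe set, at 403 in HCC4006ER and 260 in HCC4006, gave a log2 fold of 0.63, but the dimmest, at 198 in HCC4006ER and 194 in HCC4006, gave 0.03. Averaged over these probe sets SREBF2 did not pass 1.5-fold. SREBF1, which encodes the SREBP better known for fatty acid genes, was equal at 304 in HCC4006ER and 302 in HCC4006 in its 1 probe set above background. SCAP read 642 in HCC4006ER and 970 in HCC4006, 1.51-fold lower in its 1 probe set, and lay within 1.5-fold when the arrays were scaled to the same median or centred on the median of genes above background.

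Sterol transport and storage genes lay within 1.5-fold in 4 of 4 cases, where only 19.1% of all genes above background passed it in either direction. STARD4, a cytosolic sterol carrier, came nearest, at 697 in HCC4006ER and 483 in HCC4006 (log2 fold 0.53). The lysosomal cholesterol export proteins NPC1 (1547 in HCC4006ER and 1613 in HCC4006) and NPC2 (6194 in HCC4006ER and 6302 in HCC4006) were nearly equal. SOAT1, which esterifies cholesterol for storage, had a log2 fold of -0.42 at 2268 in HCC4006ER and 3041 in HCC4006, and its 3 probe sets were all on the lower side.

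Among fatty acid and glycerolipid genes, 3 of 18 were higher past 1.5-fold (16.7%, beside 7.99% of all genes), 1 was lower (5.56%, beside 11.2%) and 14 lay within it, with a median log2 fold of 0.29. The 3 were SCD5, SCD and the acyl-CoA synthetase ACSL4. SCD5 and SCD encode the stearoyl-CoA desaturases, which turn saturated into monounsaturated fatty acids. SCD5 had the largest log2 fold of all 43 members, 1.58, reading 3007 in HCC4006ER and 1006 in HCC4006, 2.99-fold higher. Its further probe sets above background were at 1220 in HCC4006ER and 295 in HCC4006 (log2 fold 2.05) and at 284 in HCC4006ER and 97.6 in HCC4006 (1.54). SCD read 2129 in HCC4006ER and 975 in HCC4006, 2.18-fold higher, and its 3 further probe sets had log2 folds of 0.68 to 0.87.

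The other desaturases act on polyunsaturated fatty acids or related chains and were less clear. FADS3 read 827 in HCC4006ER and 555 in HCC4006, 1.49-fold higher and just inside the threshold, while its dimmer probe set, at 571 in HCC4006ER and 183 in HCC4006, had a log2 fold of 1.64. It passed 1.5-fold under 6 of 10 alternative treatments of the data. FADS2, a desaturase of polyunsaturated fatty acids, read 413 in HCC4006ER and 354 in HCC4006, a log2 fold of 0.22, and had no second probe set above background.

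The enzymes that build the acyl chain showed small differences. ACLY, which splits citrate into acetyl-CoA, read 9111 in HCC4006ER and 6725 in HCC4006 (log2 fold 0.44). FASN, the fatty acid synthase, read 1065 in HCC4006ER and 862 in HCC4006 (log2 fold 0.31), and AACS, which activates acetoacetate for lipid synthesis, read 2266 in HCC4006ER and 1712 in HCC4006 (log2 fold 0.40). ACACA, the cytosolic acetyl-CoA carboxylase, had log2 folds of 0.20 and 0.74 in its 2 probe sets, and ACACB, the carboxylase linked to the control of fatty acid oxidation, had 0.12 in the only 1 of 7 probe sets above background. ACSS2, which makes acetyl-CoA from acetate, differed the other way: it read 220 in HCC4006ER and 359 in HCC4006, 1.63-fold lower in its 1 probe set, and lay within 1.5-fold with the arrays scaled to the same median.

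Elongases were within 1.5-fold in 3 of 3 cases, where only 19.1% of all genes above background passed it in either direction. ELOVL6, which lengthens palmitate, read 4744 in HCC4006ER and 5749 in HCC4006, and all 3 of its probe sets were on the lower side (log2 fold -0.56 to -0.15). ELOVL5, which lengthens polyunsaturated chains, read 7706 in HCC4006ER and 6395 in HCC4006 (0.27), with 1 of 3 probe sets on the other side, and ELOVL7, an elongase of saturated chains, was equal at 594 in HCC4006ER and 613 in HCC4006. Of the acyl-CoA synthetases, ACSL4, which prefers arachidonate, read 2093 in HCC4006ER and 1170 in HCC4006, 1.79-fold higher in the only 1 of 3 probe sets above background. ACSL1 was equal at 816 in HCC4006ER and 859 in HCC4006, and ACSL5 had log2 folds of -0.44 and -0.18 in its 2 probe sets. At the entry to glycerolipids, GPAM, the acyltransferase, and LPIN1, the phosphatidate phosphatase, had log2 folds of 0.38 and 0.41, with every probe set above background on the higher side. The further probe set of GPAM, at 710 in HCC4006ER and 469 in HCC4006, had a log2 fold of 0.60, past 1.5-fold.

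**Figure D4:**
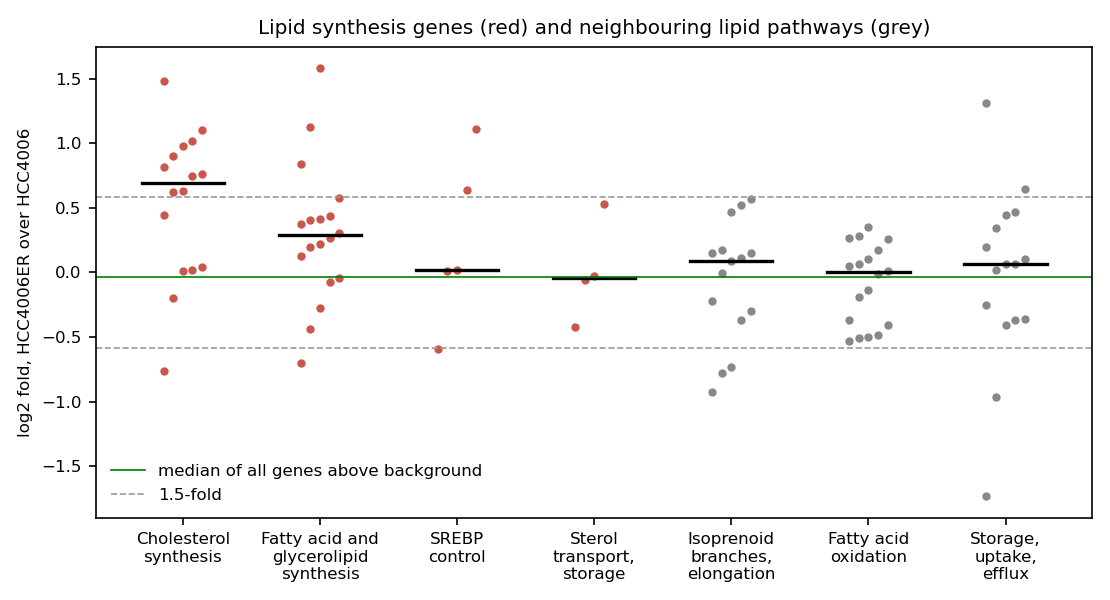
Log2 fold of HCC4006ER over HCC4006 for the members (red, 4 groups) and for 3 neighbouring lipid pathways (grey), with 1 point per gene above background, a black bar at the group's median, a green line at the median of all genes (-0.04) and dashed lines at 1.5-fold. The bar of cholesterol synthesis lies at 0.69, that of fatty acid and glycerolipid genes at 0.29 and that of fatty acid oxidation at 0.00.

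Neighbouring lipid pathways were read beside the members. Fatty acid oxidation had 0 of 18 genes past 1.5-fold, where 7.99% of all genes were higher and 11.2% lower, with log2 folds of -0.53 to 0.35. The widest were PPARA, a nuclear receptor that switches on oxidation genes, at 203 in HCC4006ER and 294 in HCC4006, and HADH, a dehydrogenase of the cycle, at 1331 in HCC4006ER and 1891 in HCC4006. Next came HADHA of the trifunctional protein, at 1718 in HCC4006ER and 2434 in HCC4006, and CPT1A, which lets fatty acids into mitochondria, at 553 in HCC4006ER and 774 in HCC4006. Of 15 genes of isoprenoid branches, SREBP cleavage and the elongation cycle, 0 were higher and 3 were lower (20.0% lower, beside 11.2% of all genes). These were COQ2 of coenzyme Q synthesis (903 in HCC4006ER and 1711 in HCC4006), the enoyl reductase TECR (1623 in HCC4006ER and 2788 in HCC4006) and the elongase ELOVL4 (192 in HCC4006ER and 319 in HCC4006). DHDDS, which makes the dolichol chain, had a log2 fold of 0.57. MBTPS1 and MBTPS2, the proteases that release the SREBPs, had log2 folds of 0.47 and -0.30.

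Of 24 genes of lipid storage, uptake and sterol efflux, 16 were above background, of which 2 were higher and 2 were lower, 12.5% each and close to the 7.99% and 11.2% of all genes. SCARB1, a receptor that takes up cholesterol from lipoproteins, read 1343 in HCC4006ER and 541 in HCC4006, 2.48-fold higher, and the fatty acid binding protein FABP5 was 1.56-fold higher at 4065 in HCC4006ER and 2600 in HCC4006. DGAT1, which completes triglycerides, read 125 in HCC4006ER and 416 in HCC4006, 3.32-fold lower, and MYLIP, the ligase that degrades lipoprotein receptors and a known target of the oxysterol receptors, was 1.95-fold lower at 152 in HCC4006ER and 296 in HCC4006. Both HCC4006ER values are low, under the background of 163 that the 99th percentile gave on that array, so the size of these folds depends on where background is set. ABCA1 and ABCG1, which export cholesterol and are targets of the same receptors, were not above background on either array. SCARB1, FABP5, DGAT1 and MYLIP are named as the 4 largest differences of that list. No gene here was tested, and no difference between these groups of genes was tested.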

How the data were processed

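The authors deposited 1 MAS5 signal intensity per probe set on a linear scale, 54675 per array, for 1 array per cell line, each of pooled RNA from 3 preparations. The submitters' processing notes name GCOS 1.4 and MAS5. No detection calls and no genome build come with the values, and the table held no column of another sample. MAS5 scales whole arrays, and precision is limited by having 1 array per line.

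Of the probe sets, 41097 carried 1 gene symbol in the platform annotation, which made them usable here, another 1801 had more than 1 symbol and 11777 had no entry. A signal under background was raised to that level before the log2 fold was taken, and no fold was taken with both signals under it. No p-value was computed. The members and gene lists were chosen with earlier results of these data known. Every member could be named; members past 1.5-fold, SREBP control genes and members with discordant probe sets were given in full, and from each neighbouring pathway up to 4 genes with the largest fold, with others named after their values were seen. The calculation was tested on simulated data with known folds. Alternatives covered array scaling, the probe set per gene, background and threshold. Python 3.11.15 with numpy 2.4.6, pandas 2.3.3 and matplotlib 3.10.9 was used.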

Additional observations from a re-analysis of the deposited data

How the results depend on the processing

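Of the 15 members that were higher, 11 kept that call under every one of 10 alternatives that gave them a value, and 1 of the 3 lower members (PMVK) did. Some alternatives could not change a call. All 43 members lay above background on both arrays, so dropping the floor or requiring both arrays above background left their values as they were. For members with 1 probe set, such as ACAT2, MVD, HSD17B7, MSMO1 and PMVK, averaging or choosing among probe sets had no effect. No called member changed sign under these alternatives, and the median log2 fold of the members ran from 0.23 to 0.53. With the arrays at equal medians, 1 member was lower, and 0 of the fatty acid and glycerolipid genes were. Leaving out probe sets whose names mark probes shared by several transcripts, 31 members were left. Of these, 28 were above background, and IDI1, ACSL4 and FADS2 were not. Of the 28, 9 were higher and 1 was lower, beside 8.75% and 11.1% of all genes at that setting. Among them, 5 cholesterol synthesis enzymes were higher and 0 lower, and 0 fatty acid and glycerolipid genes were lower. Fewer genes were measured there. Where each gene was read from its most different probe set, 35 members were above background. Of these, 17 were higher and 3 lower, beside 12.8% and 15.5% of all genes at that setting. Among them, 9 cholesterol synthesis enzymes were higher and 1 lower, and 6 fatty acid and glycerolipid genes were higher and 1 lower. At 2-fold, 6 members were higher and 0 lower, among them 3 cholesterol synthesis enzymes higher and 0 lower, and 0 fatty acid and glycerolipid genes were lower. Among the 11896 genes above background, 950 were higher and 1328 lower past 1.5-fold, against 1475 and 880 with equal medians, and 283 and 424 at 2-fold. By the measured ratio with dim signals kept, 2574 were higher and 4550 lower. That count runs over all 19775 genes and takes in those below background on both arrays. The cause of the other shifts was not tested otherwise. Leaving out an array was not possible with 1 per cell line. No paired analysis was possible because each cell line has 1 array. MVD lay close to background on the HCC4006 array.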
